A study of Mus musculus with 6 samples.

Results

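The parvins and the proteins they assemble with were described through 8 genes, chosen by symbol from the 34724 genes of a table of read counts for 2 mouse cell lines. They are the parvins Parva, Parvb and Parvg, the integrin-linked kinase gene Ilk, the PINCH genes Lims1 and Lims2, the Ras suppressor gene Rsu1 and the kindlin gene Fermt2. All 8 were in the table, and 7 had reads. The set was drawn up because Parvb had reads in only one of the lines, so the values of Parvb are given as a description with no test, and the question asked of the others was whether Parva differed in the opposite direction.

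The lines were 2H-11, labelled tumor endothelial cells, and SVEC4-10, labelled normal endothelial cells, with 3 libraries each. Both came from the axillary lymph node of adult C3H/HeJ mice and both carry SV40 transformation, so this is shared by the 2 groups. RNA molecules were read directly by nanopore sequencing, so that in principle each read stands for 1 molecule. With 1 line per label, an effect of tumor or normal origin and all else that sets 2H-11 and SVEC4-10 apart cannot be told apart. The labels do not state whether a line's libraries were separate cultures. The p-values therefore reflect the scatter of the libraries only, and that scatter may be technical.

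Integrin-linked kinase is a scaffold with a kinase-like domain that has little or no catalytic activity. It binds a PINCH protein through its ankyrin repeats and a parvin through its kinase-like domain, and the resulting trimer ties the tails of beta integrins to actin at focal adhesions. Rsu1 binds PINCH-1, and kindlin-2, the product of Fermt2, binds integrin tails and brings the scaffold to them. In mammalian cells the proteins of the trimer stabilise one another, a property of proteins that RNA reads do not measure.

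Depth and identity of the lines set limits on all values. The total of counted reads was 4105369 to 5825968 in 2H-11 and 3628400 to 16798666 in SVEC4-10, and levels are given in CPM, the counts of a gene scaled to a common library total of 1000000 reads. Of 11 pan-endothelial markers, 9 were under 1 CPM in all 6 libraries, and Tie1, Vwf, Erg, Cldn5 and Emcn had no read in any. Their summed level was 12.2 to 19.2 CPM in 2H-11 and 2.80 to 4.13 CPM in SVEC4-10. Markers of mesothelium stood apart most, at a summed 58.5 to 72.4 CPM in 2H-11 and 3397 to 4292 CPM in SVEC4-10 over 7 genes, of which 5 were lower and 1 higher among 6 tested. Smooth muscle and mural markers summed to 1135 to 1748 CPM in 2H-11 and 1120.0 to 1957 CPM in SVEC4-10, with 4 of 6 tested genes higher. Fibroblast markers summed to 1003 to 1237 CPM in 2H-11 and 822 to 1355 CPM in SVEC4-10, with 4 of 6 tested genes higher and 1 lower. Higher and lower stand here for 2H-11 against SVEC4-10 at an edgeR adjusted p under 0.05. Of all genes tested, 20.1% were higher and 16.2% lower on that measure. Rgs5 of the mural markers and Lum of the fibroblast markers had no read. The pan-endothelial and mesothelial sums differed between the lines without overlap, while the mural and fibroblast sums overlapped though genes in them were called. All of this goes with the line, as does every difference below, and its part in those differences was not tested. In bulk RNA, fewer cells that make a transcript and less of it per cell cannot be told apart.

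Of the 3 parvins, both lines had reads of Parva, 2H-11 alone had reads of Parvb, and neither had reads of Parvg. Parvb, the beta-parvin that binds integrin-linked kinase and the guanine nucleotide exchange factor alpha-PIX (ENSMUSG00000022438, GRCm38 chromosome 15, 84232043 to 84315688, plus strand), had 386, 261 and 443 reads in 2H-11 replicates 1 to 3, against 0, 0 and 0 in SVEC4-10 replicates 1 to 3. In CPM this was 71.8, 63.6 and 76.0 in 2H-11, with a mean of 70.5 ± 6.34 (SD, n = 3). The libraries of 2H-11 lay close together, and none of the 24705490 reads counted in SVEC4-10 was assigned to the gene. Taking the limit that a count of 0 allows as 3 reads over the SVEC4-10 libraries, or 0.121 CPM, the level in 2H-11 was at least 580.4-fold higher, and at least 185.7-fold higher without SVEC4-10 replicate 3, which held most of that line's reads. Such limits cover counting error only.

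Parva, the alpha-parvin that binds integrin-linked kinase, paxillin and actin (ENSMUSG00000030770, chromosome 7, 112427505 to 112591692, plus strand), had 127.6, 102 and 95.4 CPM in the 2H-11 libraries, against 123, 77.7 and 105.5 CPM in SVEC4-10. The groups overlapped, with 2H-11 replicate 1 the highest library and SVEC4-10 replicate 2 the lowest. The means were 108 ± 17.1 CPM in the 2H-11 libraries, against 102.0 ± 22.7 CPM in SVEC4-10. In a fit of all 13187 genes with enough reads (edgeR quasi-likelihood test, Benjamini-Hochberg adjustment over all of them), the log2 fold change of 2H-11 over SVEC4-10 was -0.0039 (SE 0.19, adjusted p = 0.991). Its 95% interval ran from -0.40 to 0.39, which is 0.759 to 1.31 in fold. Fold changes come from this fit, which rescales the libraries, and can differ from the ratio of mean CPM. Parva was therefore not found to differ in the direction opposite to Parvb, and a change within these bounds, in either direction, is not excluded by 3 libraries a line. The sign itself turned in 8 of 16 alternative fits, where the value lay between -0.18 and 0.09.

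Parvg, the gamma-parvin of blood cells (ENSMUSG00000022439, chromosome 15, 84324026 to 84342978, plus strand), had 0 reads in each of the 6 libraries. A count of 0 over the summed libraries allows a level of 0.196 CPM for 2H-11 and of 0.121 CPM for SVEC4-10. Parvg was too low to be tested, and Parvb passed the filter on low counts only through 2H-11. Among 10 leukocyte markers 8 were under 1 CPM in every library, Cd3e and Laptm5 were among those with no read, and the list summed to 7.06 to 8.24 CPM in 2H-11 and 4.29 to 7.17 CPM in SVEC4-10. Of 2 tested genes of that list, 1 was higher, Coro1a, where 20.1% of all genes tested were higher.

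With Parvb counted beside Parva, the summed parvin reads were more numerous in 2H-11. The sum of the 3 genes was 199, 165 and 171 CPM in 2H-11 replicates 1 to 3 and 123, 77.7 and 105.5 CPM in SVEC4-10 replicates 1 to 3. The groups did not overlap, and the mean was 179 ± 18.2 CPM in the 2H-11 libraries, against 102.0 ± 22.7 CPM in SVEC4-10, a ratio of 1.75. This sum contains the gene that the set was drawn up for and is not tested. Parvb made up 36.0%, 38.5% and 44.3% of parvin reads in 2H-11 replicates 1 to 3 and 0% in each SVEC4-10 library. Per kilobase of the annotated principal transcript, its shares in 2H-11 were 39.8%, 42.4% and 48.4%. Where each read stands for 1 molecule, reads do not grow in number with transcript length, and the shares of reads apply.

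**Figure D1:**
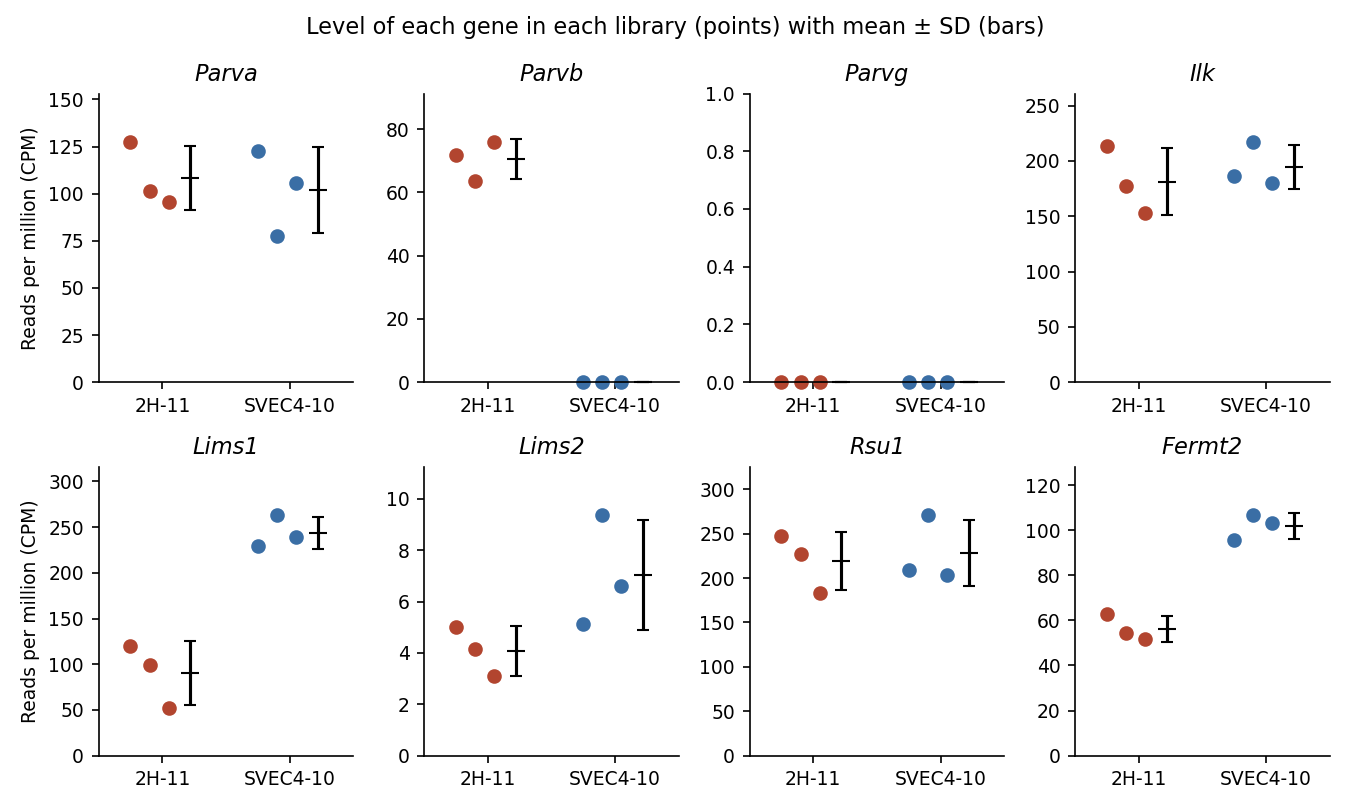
Level in CPM (vertical axis, its range set for each gene) of the 8 genes in the 3 libraries of 2H-11 (left, red points) and the 3 of SVEC4-10 (right, blue points), with bars for the mean and SD beside them. Parvb sits at 63.6 to 76.0 CPM in 2H-11 and at 0 in SVEC4-10, Parva, Ilk and Rsu1 overlap between the lines, and Lims1 and Fermt2 lie lower in every 2H-11 library.

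**Figure D2:**
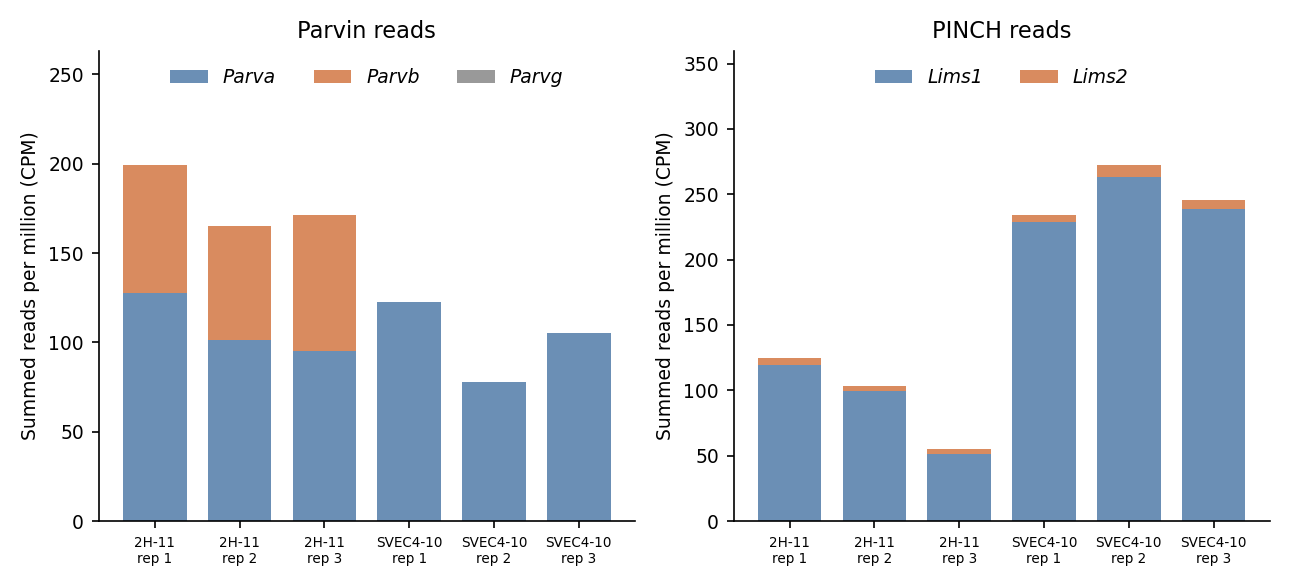
Summed CPM of the parvin genes (left panel) and of the PINCH genes (right panel) in each library, stacked by gene, with the 3 libraries of 2H-11 left of the 3 of SVEC4-10. Parvin reads total 165 to 199 CPM in 2H-11 and 77.7 to 123 CPM in SVEC4-10, while PINCH reads total 54.8 to 125 CPM in 2H-11 and 234 to 273 CPM in SVEC4-10.

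Parvb and Parvg are neighbours on one strand, with 8338 bases between them, so the reads of the genes around them were also listed. Of the 9 protein-coding genes within 300 kilobases of Parvb, itself included, Samm50 was the only other one above 1 CPM in any library. Samm50, a subunit of the mitochondrial outer membrane sorting machinery that lies 14776 bases upstream, had 108, 87.4 and 127.5 CPM in the 2H-11 libraries, against 84.4, 87.9 and 66.9 CPM in SVEC4-10. Its libraries overlapped and it did not pass the threshold (log2 fold change 0.35, SE 0.20, edgeR adjusted p = 0.187). Reads were thus counted on the upstream side of the locus in both lines. Of the remaining genes, Pnpla3, Pnpla5 and Shisal1 had no read in any library, and Efcab6, Sult4a1 and Rtl6 had 0 to 3 reads per library.

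**Figure D3:**
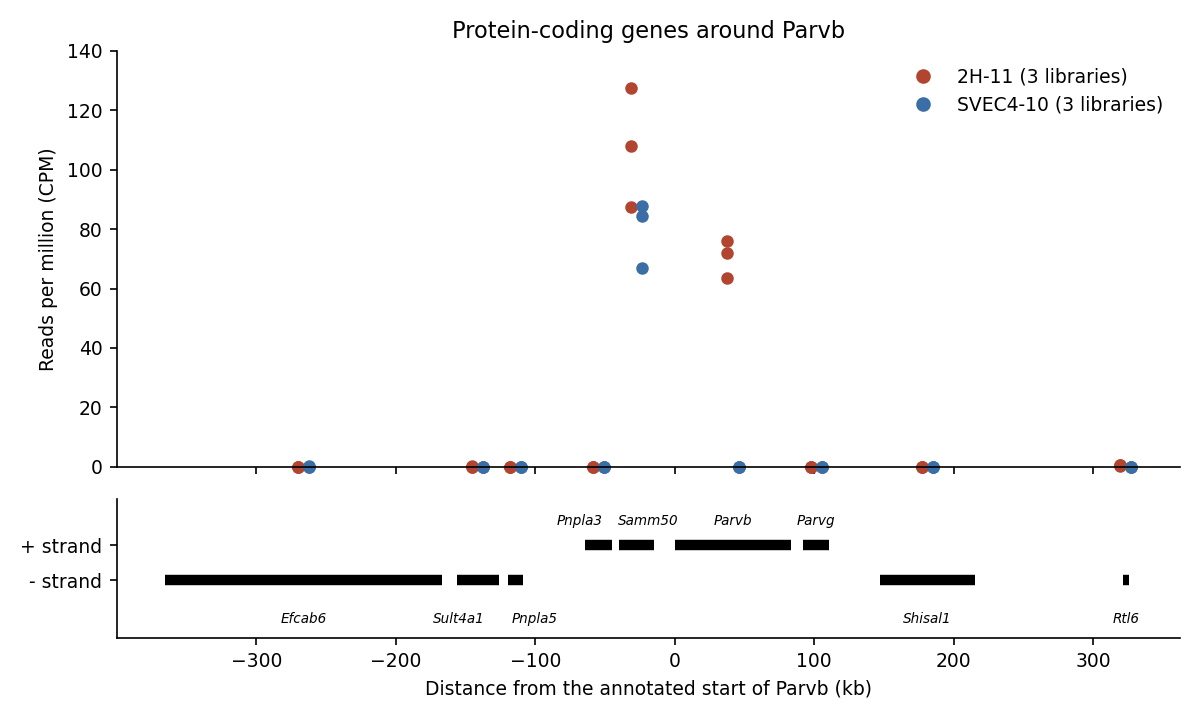
Upper panel, CPM of each protein-coding gene within 300 kilobases of Parvb in the libraries of 2H-11 (red) and SVEC4-10 (blue), drawn at the middle of the gene; lower panel, the genes themselves by strand, with distance from the annotated start of Parvb in kilobases. Samm50 has 66.9 to 127.5 CPM over the 6 libraries, and Parvb has reads only in 2H-11.

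The windows around the starts of the Parvb and Parvg genes are shown because one is counted in a single line and the other in neither. Each runs from 250 bases before to 50 bases after a start in RefSeq on GRCm38.p6, on the plus strand, at chr15:84231793-84232092 for Parvb and chr15:84324470-84324769 for the first of 2 starts of Parvg. Capitals mark GC boxes, that is the letters GGGCGG or CCGCCC of either strand.
Parvb: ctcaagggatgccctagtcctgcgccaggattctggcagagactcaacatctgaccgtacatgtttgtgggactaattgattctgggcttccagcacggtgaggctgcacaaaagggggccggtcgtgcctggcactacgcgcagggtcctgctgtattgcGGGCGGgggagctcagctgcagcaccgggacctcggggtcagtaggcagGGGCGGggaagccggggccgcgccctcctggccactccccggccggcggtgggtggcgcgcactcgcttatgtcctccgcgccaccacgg
Parvg: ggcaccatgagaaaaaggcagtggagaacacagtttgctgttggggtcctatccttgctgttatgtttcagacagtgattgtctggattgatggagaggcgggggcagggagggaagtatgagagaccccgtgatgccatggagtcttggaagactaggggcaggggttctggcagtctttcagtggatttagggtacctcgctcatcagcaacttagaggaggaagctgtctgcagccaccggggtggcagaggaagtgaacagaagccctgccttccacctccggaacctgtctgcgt
The Parvb window held 24 CpG dinucleotides and 2 GC boxes, and the Parvg window held 6 CpG dinucleotides and 0 GC boxes. Over 32851 windows of the same length the median was 7 CpG, with quartiles of 3 and 20, and 35.7% of windows held a GC box. Neither of these windows held the letters CCAAT or ATTGG, found in 37.4% of windows, or the letters TATAAA or TTTATA, found in 13.6%. The window at the second Parvg start held 11 CpG dinucleotides, 2 GC boxes and 3 matches to CCAAT or ATTGG. These are descriptions of the reference sequence of another strain, and the libraries measured nothing at these windows. Windows of 6 of the 8 genes are described in this report, and none is given for Parva or Lims2.

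No difference between the lines was detected for the scaffold itself. Ilk (ENSMUSG00000030890, chromosome 7, 105736592 to 105742925, plus strand) had 213, 177 and 153 CPM in the 2H-11 libraries, against 186, 217 and 180.3 CPM in SVEC4-10. The groups overlapped, with a mean of 181 ± 30.3 CPM in the 2H-11 libraries, against 195 ± 19.9 CPM in SVEC4-10. The log2 fold change was -0.20 (SE 0.18, edgeR adjusted p = 0.400), with a 95% interval of 0.672 to 1.12 in fold. Ilk overlaps Taf10 and Rrp8 on the opposite strand, and since the use of strand in counting is not given in the sources used here, reads of these genes cannot be told apart from its own with certainty.

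Of the remaining genes with reads, those of PINCH-1 and kindlin-2 were lower in 2H-11. Of the 6 genes other than Parvb that were tested, 0 rose and 2 fell in 2H-11, where 36.2% of all genes tested passed the threshold, 20.1% as higher and 16.2% as lower. At an unadjusted p under 0.05, edgeR gave 0 higher and 3 lower, and DESeq2 and limma-voom each gave 0 higher and 2 lower at an adjusted p under 0.05. The share called is near that of all genes, so the count says nothing particular of the set. The libraries of the lines did not overlap for 3 of the 6, namely Lims1, Lims2 and Fermt2, against 46.8% of all genes tested. Lims1 and Fermt2 also passed the threshold as lower in each of the 16 alternative fits. Lims2 had a negative log2 fold change in all of these fits and passed the threshold in 3.

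Lims1, which encodes the LIM-domain adaptor PINCH-1 (ENSMUSG00000019920, chromosome 10, 58323466 to 58424691, plus strand), had 119.6, 99.4 and 51.7 CPM in the 2H-11 libraries, against 229, 263 and 239 CPM in SVEC4-10. Every library of 2H-11 lay below every library of SVEC4-10, as was so in this direction for 18.8% of all genes tested, and 2H-11 replicate 3 was the lowest. The mean was 90.2 ± 34.9 CPM in the 2H-11 libraries, against 244 ± 17.6 CPM in SVEC4-10, and the fitted level was 2.91-fold lower in 2H-11 (log2 fold change -1.54, SE 0.23, edgeR adjusted p = 3.4e-05). Over the 16 alternative fits the log2 fold change was between -1.81 and -1.28.

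Lims2, which encodes the close paralog PINCH-2 (ENSMUSG00000024395, chromosome 18, 31922290 to 31958619, plus strand), was at far fewer reads, with 27, 17 and 18 in 2H-11 and 22, 34 and 111 in SVEC4-10. In CPM this was 5.02, 4.14 and 3.09 in 2H-11 and 5.14, 9.37 and 6.61 in SVEC4-10. The groups did not overlap, but the highest library of 2H-11 and the lowest of SVEC4-10 were almost equal. The log2 fold change of -0.87 (SE 0.35, 95% interval -1.60 to -0.14) did not pass the threshold (edgeR adjusted p = 0.0580). It passed without 2H-11 replicate 1 (adjusted p = 0.0382), without SVEC4-10 replicate 1 (0.0262) and with no filter on low counts (0.0330), over a range of 0.0262 to 0.234 in the alternatives. Lims1 and Lims2 are similar in sequence, and how the counting treated reads that match both is not given in the sources used here.

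Together the PINCH genes had 125, 103.5 and 54.8 CPM in the 2H-11 libraries, against 234, 273 and 246 CPM in SVEC4-10. The mean was 94.3 ± 35.8 CPM in the 2H-11 libraries, against 251 ± 19.7 CPM in SVEC4-10, a ratio of 0.376, and the groups did not overlap. Lims1 supplied 94.4% to 96.0% of PINCH reads in 2H-11 and 96.6% to 97.8% in SVEC4-10, so the paralog made up a small part in either line. Per kilobase of transcript, the share of Lims1 was 95.2% to 96.6% in 2H-11 and 97.1% to 98.2% in SVEC4-10.

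Rsu1, the leucine-rich repeat protein that binds PINCH-1 (ENSMUSG00000026727, chromosome 2, 13076821 to 13271415, minus strand), was not found to differ. It had 247, 227 and 183 CPM in the 2H-11 libraries, against 209.7, 271 and 203 CPM in SVEC4-10. The groups overlapped, and the log2 fold change was -0.16 (SE 0.18, edgeR adjusted p = 0.530), with a 95% interval of 0.687 to 1.16 in fold. The mean was 219 ± 32.8 CPM in the 2H-11 libraries, against 228 ± 37.3 CPM in SVEC4-10. Rsu1 overlaps Gm38156, Gm37780 and Gm37160 on its own strand. None of these was among the genes counted, so their reads cannot be told apart from those of Rsu1 with certainty. Per kilobase, Lims1 stood at 0.397 ± 0.104 of Rsu1 in 2H-11 and at 1.07 ± 0.101 of Rsu1 in SVEC4-10, without overlap. The annotated transcripts were 1565 bases for Lims1 and 1546 bases for Rsu1, so this scaling changes the proportion little.

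Fermt2, which encodes kindlin-2, an integrin activator of many tissues outside blood (ENSMUSG00000037712, chromosome 14, 45458795 to 45530118, minus strand), had 62.7, 54.6 and 51.7 CPM in the 2H-11 libraries, against 95.6, 106.7 and 103 CPM in SVEC4-10. All 2H-11 libraries lay below all SVEC4-10 libraries, with little spread in either line. The mean was 56.3 ± 5.72 CPM in the 2H-11 libraries, against 102 ± 5.65 CPM in SVEC4-10, and the fitted level was 1.94-fold lower in 2H-11 (log2 fold change -0.95, SE 0.18, edgeR adjusted p = 0.000406). Fermt2 overlaps 9630050E16Rik over 7441 bases and Gm22637 over 283 bases on its own strand. Neither was among the genes counted, so their reads cannot be told apart from those of Fermt2 with certainty. Of the relatives of Fermt2, Fermt1 of epithelia had no read, and Fermt3 of blood cells had 4 reads in all of 2H-11 and 4 reads in all of SVEC4-10.

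**Figure D4:**
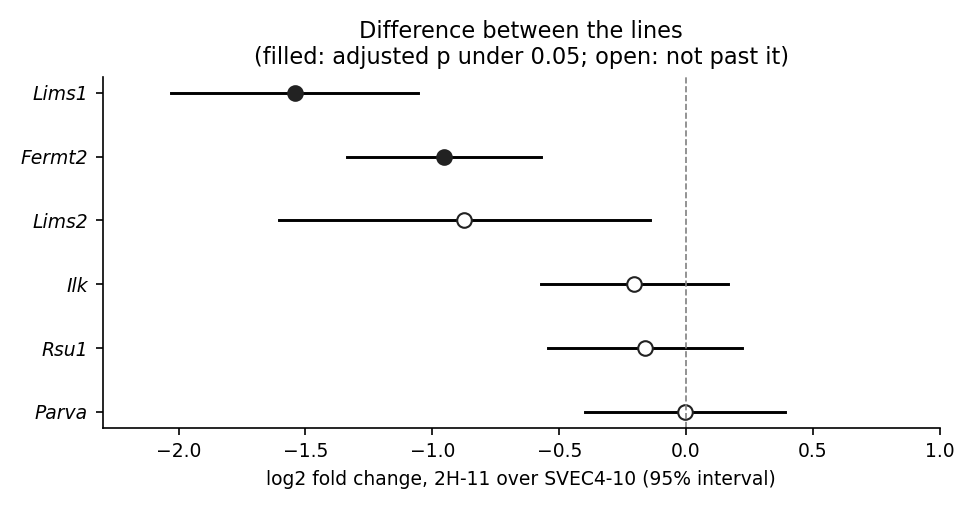
Fitted log2 fold change of 2H-11 over SVEC4-10 (horizontal axis; points, with lines for the 95% interval) for the 6 genes other than Parvb that had enough reads to be tested. Filled points passed an adjusted p of 0.05; Lims1 lies at -1.54 and Fermt2 at -0.95, and the intervals of Ilk, Rsu1 and Parva include 0.

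The windows of Lims1 and Fermt2 are shown because both genes fell. They lie at chr10:58323297-58323596 on the plus strand for the first of 3 Lims1 starts and at chr14:45530016-45530315 on the minus strand for Fermt2, both read in the direction of the gene from RefSeq on GRCm38.p6, with GC boxes in capitals.
Lims1: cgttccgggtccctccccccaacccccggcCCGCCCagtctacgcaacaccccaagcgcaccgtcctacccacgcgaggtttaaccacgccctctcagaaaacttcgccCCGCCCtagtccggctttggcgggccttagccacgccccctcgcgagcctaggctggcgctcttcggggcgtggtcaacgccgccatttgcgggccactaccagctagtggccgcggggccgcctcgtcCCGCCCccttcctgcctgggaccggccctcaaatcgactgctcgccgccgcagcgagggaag
Fermt2: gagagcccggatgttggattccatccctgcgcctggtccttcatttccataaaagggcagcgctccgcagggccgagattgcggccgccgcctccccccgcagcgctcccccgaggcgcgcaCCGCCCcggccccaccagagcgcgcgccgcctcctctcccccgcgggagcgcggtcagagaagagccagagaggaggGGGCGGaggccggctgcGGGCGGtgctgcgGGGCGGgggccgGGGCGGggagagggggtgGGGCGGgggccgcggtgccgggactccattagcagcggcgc
The Lims1 window held 34 CpG dinucleotides and 3 GC boxes, and the Fermt2 window held 37 CpG dinucleotides and 6 GC boxes. Of genes that did not pass the threshold, Ilk had 29 CpG dinucleotides and 0 GC boxes at the first of its 2 starts and 37 CpG dinucleotides and 3 GC boxes at the second, and Rsu1 had 12 CpG dinucleotides and 2 GC boxes. The windows at the other 2 Lims1 starts held 1 and 2 CpG dinucleotides and 0 GC boxes each. Which start the reads came from is not recorded in a table of counts per gene.

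The proportions of the transcripts to Ilk were compared between the lines, with each gene taken per kilobase of its principal transcript. The size of such a proportion depends on the annotated lengths and, where each read stands for 1 molecule, is not a proportion of molecules. In reads, the 2H-11 means were 108 CPM for Parva, 179 CPM for all parvins and 181 CPM for Ilk. The SVEC4-10 means were 102.0 CPM for Parva, the only parvin read there, and 195 CPM for Ilk. The ratio of the lines for a single gene does not depend on the lengths. For the summed parvins it does, with a ratio of 1.75 in CPM and of 1.87 per kilobase. Lims1 stood at 0.643, 0.643 and 0.387 of Ilk in 2H-11, against 1.41, 1.39 and 1.52 in SVEC4-10. The groups did not overlap. Fermt2 stood at 0.171 ± 0.0120 of Ilk in 2H-11 and 0.286 ± 0.0230 in SVEC4-10 (SD, n = 3 each), also without overlap. Parva stood at 0.241 ± 0.0100 of Ilk in 2H-11 and 0.215 ± 0.0633 in SVEC4-10, with overlap. Rsu1 stood at 1.41 ± 0.0731 of Ilk in 2H-11 and 1.35 ± 0.0800 in SVEC4-10, with overlap as well. All parvins together stood at 0.401, 0.401 and 0.486 of Ilk in 2H-11, against 0.265, 0.144 and 0.236 in SVEC4-10. Relative to Ilk, reads of PINCH were thus fewer and reads of parvins more numerous in 2H-11, the second through Parvb. These proportions were not tested.

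The genes whose levels ran most like those of Parvb over the 6 libraries were looked up among 19908 named genes, by the Euclidean distance of log2(CPM + 1). The 4 nearest were Tex19.1 at a distance of 0.457, Ly6c1 at 0.530, Mfap2 at 0.715 and Col6a3 at 0.787. Tex19.1, a gene of the germ line, Mfap2, a glycoprotein of microfibrils, and Col6a3, a chain of collagen VI, had no read in SVEC4-10 and means of 60.3 ± 6.46, 54.1 ± 3.38 and 53.4 ± 5.50 CPM in 2H-11. Ly6c1, a surface antigen, had 3 reads in SVEC4-10, all in replicate 3, and 77.6 ± 12.0 CPM in 2H-11, and it has near-identical relatives with which reads could be shared. The 4 nearest to Parva were the proteasome subunit gene Adrm1 at 0.268, the spectrin gene Sptbn1 at 0.282, the TNF receptor gene Tnfrsf1a at 0.340 and the ATPase gene Ruvbl2 at 0.352, and for each of them the lines overlapped. The distances are a description of 6 libraries. Parvb was chosen for its reads in 2H-11 alone, so the genes nearest to it had to have few or no reads in SVEC4-10. Shared control of these genes was not tested.

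Partners of the complex were followed in 4 lists, together 45 genes, and their counts stand against the 20.1% of all genes tested that were higher and the 16.2% that were lower, 36.2% in all. Nothing particular to a list is read from its count. The parvin partners held both directions, with 3 of 9 tested genes higher and 1 lower in 2H-11 and a median log2 fold change of 0.02, against 0.0025 over all genes tested. Arhgap31, a GTPase-activating protein for Rac and Cdc42 that binds alpha-parvin, had 16.2, 16.8 and 12.2 CPM in the 2H-11 libraries, against 6.78, 4.13 and 8.10 CPM in SVEC4-10, with no overlap. It was 2.12-fold higher (log2 fold change 1.09, SE 0.28, edgeR adjusted p = 0.00512). Tgfb1i1, the paxillin relative Hic-5, averaged 97.8 ± 21.7 CPM in the 2H-11 libraries, against 55.0 ± 7.90 CPM in SVEC4-10, 1.65-fold higher (edgeR adjusted p = 0.00947). Its call was lost without 2H-11 replicate 1 (adjusted p = 0.0650) or SVEC4-10 replicate 1 (0.0674). Pxn, paxillin, averaged 29.5 ± 3.85 CPM in the 2H-11 libraries, against 15.6 ± 5.67 CPM in SVEC4-10, 1.74-fold higher (edgeR adjusted p = 0.0184), a call lost without 2H-11 replicate 2 (0.0792) or SVEC4-10 replicate 2 (0.102). The partners best known from beta-parvin were hardly read. Arhgef6, alpha-PIX, had 2 reads in 2H-11 and 0 in SVEC4-10, and Dysf, dysferlin, had 7 reads in 2H-11 and 0 in SVEC4-10.

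Among partners of PINCH and integrin-linked kinase, 0 of 8 tested genes rose and 2 fell in 2H-11, where 20.1% of all genes tested rose and 16.2% fell, with a median log2 fold change of -0.17. Without 2H-11 replicate 2, SVEC4-10 replicate 1 or SVEC4-10 replicate 2, and with no filter on low counts, 1 gene rose. That gene need not be one of these 8. Itgb3 of this list had too few reads for the main fit. It averaged 2.39 ± 0.467 CPM in the 2H-11 libraries, against 0.636 ± 0.0768 CPM in SVEC4-10, without overlap, from 37 and 16 reads. At an unadjusted p under 0.05 edgeR gave 0 higher and 2 lower. At an adjusted p under 0.05, limma-voom gave 0 higher and 2 lower, and DESeq2 gave 0 higher and 1 lower. Tmsb4x, the actin-sequestering peptide thymosin beta-4 that binds PINCH and integrin-linked kinase, averaged 1186 ± 141 CPM in the 2H-11 libraries, against 2912 ± 204 CPM in SVEC4-10, with no overlap. It was 2.61-fold lower in 2H-11 (log2 fold change -1.38, SE 0.16, edgeR adjusted p = 1.16e-06). Nck2, the adaptor that binds a LIM domain of PINCH-1, had 2.05, 1.22 and 2.75 CPM in the 2H-11 libraries, against 3.97, 3.58 and 4.35 CPM in SVEC4-10. It was 2.07-fold lower (edgeR adjusted p = 0.0429), a call lost in 10 of 15 alternative fits, with adjusted p up to 0.210. Among these were the fits without 2H-11 replicate 1 (0.0661) or 2 (0.210) and without SVEC4-10 replicate 1 (0.0597), 2 (0.0593) or 3 (0.137). Ilkap, a phosphatase that binds integrin-linked kinase, had 13.7 ± 1.14 CPM in the 2H-11 libraries, against 16.5 ± 1.38 CPM in SVEC4-10, and did not pass the threshold (edgeR adjusted p = 0.263).

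In the list for kindlins, talins and integrin activation 3 of 10 tested genes rose and 1 fell, beside the same 20.1% and 16.2% of all genes, with a median log2 fold change of 0.02. Kank1, an adaptor that binds talin at the rim of focal adhesions, had 0.744, 1.71 and 0.515 CPM in the 2H-11 libraries, against 56.6, 36.1 and 43.6 CPM in SVEC4-10. It was 51.0-fold lower in 2H-11 (log2 fold change -5.67, SE 0.35, edgeR adjusted p = 4.1e-10), the largest change in the 4 lists. Fblim1, migfilin, which kindlin-2 recruits to adhesions, had 90.8, 98.2 and 75.01 CPM in the 2H-11 libraries, against 16.4, 14.3 and 22.3 CPM in SVEC4-10. It was 4.56-fold higher (log2 fold change 2.19, SE 0.22, edgeR adjusted p = 2.28e-07), in the direction opposite to Fermt2. Apbb1ip, the Rap1 effector RIAM that brings talin to integrins, averaged 21.2 ± 7.19 CPM in the 2H-11 libraries, against 4.67 ± 0.763 CPM in SVEC4-10, 4.20-fold higher (edgeR adjusted p = 1.78e-05).

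In the other adhesion plaque genes 2 of 12 tested rose and 5 fell, again beside 20.1% and 16.2% of all genes, with a median log2 fold change of -0.13. Vcl, vinculin, had 73.3, 62.6 and 33.0 CPM in the 2H-11 libraries, against 160.1, 142 and 166 CPM in SVEC4-10, 2.98-fold lower (edgeR adjusted p = 2.21e-05). As for Lims1, 2H-11 replicate 3 was the lowest library. Zyx, zyxin, a LIM-domain protein of adhesions and stress fibres, averaged 76.2 ± 14.5 CPM in the 2H-11 libraries, against 195 ± 41.9 CPM in SVEC4-10, 2.73-fold lower (edgeR adjusted p = 2.17e-05). Tns3, a tensin, averaged 18.6 ± 2.29 CPM in the 2H-11 libraries, against 34.7 ± 6.31 CPM in SVEC4-10, 2.02-fold lower (edgeR adjusted p = 0.00123). Over the 4 lists, with 9, 8, 10 and 12 genes tested, 8 genes were higher and 9 lower. Of all genes tested, 36.2% were called, 20.1% as higher and 16.2% as lower. Without 2H-11 replicate 1 the higher ones numbered 5, and without SVEC4-10 replicate 3 the lower ones numbered 5. The other called genes had log2 fold changes of -0.51 for Actn4, an actinin among the parvin partners, 0.65 for Rap1a, a GTPase of integrin activation, and 0.94, 0.59, -0.80 and -0.92 for Tns2, Ptk2, Tns1 and Bcar1 of the adhesion plaque. Counts within a list turned on single libraries. The parvin partners had 2 lower without 2H-11 replicate 1, SVEC4-10 replicate 1 or SVEC4-10 replicate 2, and 0 lower when any single library of the other 3 was left out. Actn4, the 1 lower gene of that list, also lost its call with a replicate block, with scaling by library size alone, with thinning to the smallest library and with Ensembl genes only. The PINCH and ILK partners had 1 lower when any single library other than 2H-11 replicate 3 was left out. The adhesion plaque list had 1 higher without replicate 1 or 2 of either line, and 3 lower without SVEC4-10 replicate 3. The list for kindlins, talins and integrin activation had 2 higher without 2H-11 replicate 1 or 2 or without SVEC4-10 replicate 1 or 3. Fblim1 and Apbb1ip kept their calls in these fits, so the call lost was that of Rap1a.

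**Figure D5:**
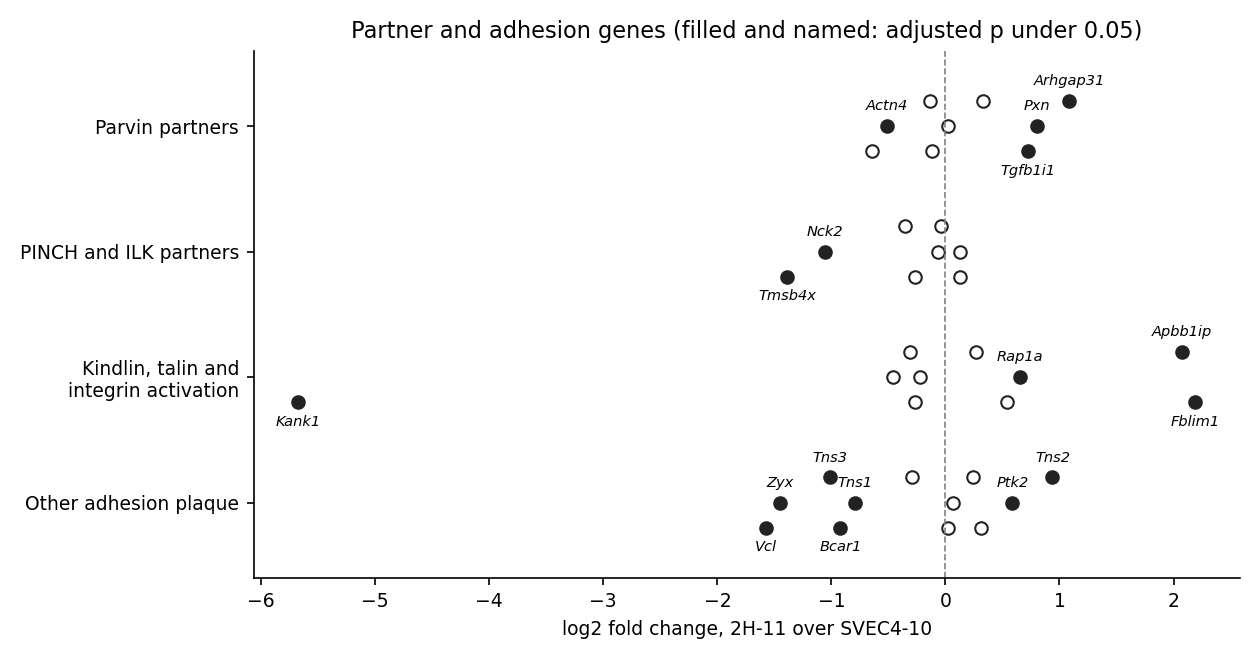
Fitted log2 fold change of 2H-11 over SVEC4-10 (horizontal axis) for every tested gene of the 4 partner lists, 1 point per gene, offset up and down only to keep points apart. Filled, named points passed an adjusted p of 0.05; called genes lie on both sides of 0 in the lists other than the PINCH and ILK partners, where none rose, and Kank1 lies farthest out at -5.67.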

How the data were processed

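RNA was prepared with Trizol and the direct RNA kit SQK-RNA002, per the labels' protocols, and builds mm10 and GRCm38 are named in the submitters' processing notes. Not given in the sources used here are the aligner, counter, annotation, strand setting and any filter. The authors deposited raw read counts per gene and the same counts as CPM, per the file headers; CPM equalled each count over its library total. Left out were 13 lines that named no gene.

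Counts were tested with edgeR 4.0.16 in R 4.3.3: filterByExpr (minimum count 10, total 15), TMM, quasi-likelihood test with line as its term, Benjamini-Hochberg adjustment, threshold 0.05. The biological coefficient of variation was 20.2%, and the fit was tested on simulated data. Intervals are fold change and SE from that fit. DESeq2 1.42.0 and limma 3.58.1 (voom) were alternatives, with other scalings, filters, thinning, a replicate block and leaving out each library. Coordinates and the longest principal transcript came from GENCODE M21 on GRCm38, promoter windows from RefSeq. Named genes were all members, the 3 of smallest adjusted p per partner list, and the 4 nearest to Parvb and to Parva by distance; other names were added after values were seen. The members and lists were chosen with earlier results of these data known. Tables were made with pandas 2.3.3 and numpy 2.4.6 in Python 3.11.15, and figures with matplotlib 3.10.9.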

Additional observations from a re-analysis of the deposited data

How the results depend on the processing

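Over 16 alternative fits, Lims1 and Fermt2 stayed lower in 2H-11 past the threshold, with log2 fold changes of -1.81 to -1.28 and -1.08 to -0.85. Ilk and Rsu1 kept their sign and did not pass in any of them. The log2 fold change of Parva, -0.0039, turned positive with a replicate block (0.0020), library size alone (0.087), a filter of 20 counts in 3 libraries (0.013), thinning to the smallest library (0.0067) and Ensembl genes only (0.090), and ranged from -0.18 to 0.057 when single libraries were left out; the cause was not tested. Positive values among these were those without 2H-11 replicate 2 (0.035), 2H-11 replicate 3 (0.056) and SVEC4-10 replicate 1 (0.057). It passed in none of the fits (adjusted p of 0.513 to 0.996). Lims2 passed with no filter (log2 fold change -0.95) and ranged from -1.11 to -0.68 without single libraries; the cause was not tested. The lower bound on Parvb ran from 185.7-fold to 608.8-fold without single libraries, the lowest without SVEC4-10 replicate 3, since 3 counts over fewer reads is a higher level. Scaling by library size alone shifted the median log2 fold change of all genes to 0.099.

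Same-numbered libraries of the 2 lines did not deviate together (correlations of -0.00072, 0.051 and 0.0015), and not every library correlated best with its own number, so the numbers were not taken as pairs. A replicate block gave 4461 calls in place of 4778 over all genes, 2 in place of 2 among the members and 15 in place of 17 in the partner lists. Depth limits what can be said of Parvg, Lims2 and the partners with few reads.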
